A study of Bos taurus with 29 samples.

Results

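The genes described are 9 that act in, or control, the making of progesterone in the corpus luteum: STAR, CYP11A1, HSD3B1, FDX1, FDXR, NR5A1, NR5A2, TSPO and POR. They were chosen by name for their known roles, and each had its own row among the 19112 genes of the bovine corpus luteum count table. All 9 were among the 18939 genes that passed the filter on low counts and were tested. The corpus luteum is the gland that forms in the ovary after ovulation, and its tissue came from a slaughterhouse. Read counts were given for 12 libraries in 4 groups of 3. The study concerns signals between the embryo, the endometrium and the corpus luteum, for which endometrial explants were cultured alone or with 1 embryo at day 7, produced in vivo or in vitro.

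The control group, CL-NC, is labelled NC and carries the word DMEN in its titles. CL-CM-EE is labelled for explants without an embryo, CL-CM-EE-AI for explants with an in vivo embryo and CL-CM-EE-IVF for explants with an in vitro embryo. The letters CM, which no label explains, were taken to mean culture medium conditioned by explants. Neither the length of exposure nor the age of the glands is given in the sources used here. Each group held 1 library each with the numbers R2, R4 and R5. What an R number marks is not stated, and nothing says that replicates came from separate animals, so p-values measure only the spread between these samples, which may be technical. The titles of the R2 libraries have another prefix, and another sequencing run cannot be told apart from the number R2.

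Progesterone is made from cholesterol in a short chain of steps shared between the mitochondrion and the smooth endoplasmic reticulum. STAR brings cholesterol to the inner mitochondrial membrane, where CYP11A1 cuts its side chain to give pregnenolone with electrons passed on by FDXR and FDX1, and a 3β-hydroxysteroid dehydrogenase such as HSD3B1 then makes progesterone. In luteal cells the orphan nuclear receptors NR5A1 and NR5A2 bind and activate the promoters of several of these genes, and luteinizing hormone acts through cyclic AMP to keep the chain running.

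Library totals ran from 16536797 to 25747637 counts, and mitochondrial transcripts took between 44.4% and 64.0% of them. Together the 9 genes held between 0.0981% of the counts, in CL-CM-EE R2, and 0.521%, in CL-CM-EE-AI R4. A list of 5 luteal cell markers (LHCGR, SCARB1, PTGFR, PRLR and OXT) was detected in full in all 12 libraries. The lists of endothelial, fibroblast and T cell markers were too, so detection alone does not identify the tissue. Levels are given in CPM, counts scaled to a common library total after TMM normalisation, and are not comparable between genes because no gene lengths were available.

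The R4 libraries stood apart for several of these genes, and CL-CM-EE-AI R4 was the highest library for 5 of the 9 genes: STAR, CYP11A1, HSD3B1, FDX1 and FDXR. That library was the highest for 17.9% of all genes tested. An R4 library was the highest for 7 of the 9 genes, against 38.9% of all genes. Group comparisons are therefore given with and without the R4 libraries.

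STAR moves cholesterol across the mitochondrial membranes, the step at which hormones chiefly control the rate. In CL-NC it measured 161 CPM in R2, 211 CPM in R4 and 191 CPM in R5. In CL-CM-EE the values were 158, 463 and 153 CPM in the same order. The R4 library was high with the explant medium, while R2 and R5 were slightly below their controls. CL-CM-EE-AI gave 140, 986 and 138 CPM, and CL-CM-EE-IVF gave 256, 527 and 144 CPM. All 4 groups overlapped, and within each group R4 was the highest library.

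CYP11A1 is the side-chain cleavage enzyme. It measured 315, 291 and 239 CPM in R2, R4 and R5 of CL-NC and 298, 575 and 177 CPM in CL-CM-EE. It measured 287, 1103 and 224 CPM in CL-CM-EE-AI and 504, 644 and 207 CPM in CL-CM-EE-IVF. The R5 library was the lowest in each group, and only in CL-NC was R4 not the highest. The 3 control libraries lay close together, with a mean of 282 CPM ± 38.8 (SD, n = 3), whereas CL-CM-EE-AI had a mean of 538 CPM ± 490 that rested on R4.

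HSD3B1 converts pregnenolone to progesterone. Its values in R2, R4 and R5 were 472, 612 and 786 CPM in CL-NC and 423, 1063 and 553 CPM in CL-CM-EE. They were 543, 2470 and 983 CPM in CL-CM-EE-AI and 909, 1322 and 819 CPM in CL-CM-EE-IVF. Each CL-CM-EE-IVF library was above each CL-NC library. No other of the 9 genes had groups that did not overlap in any of the 6 comparisons, in either direction. Groups without overlap, with CL-CM-EE-IVF higher, were found for 2.41% of all genes. The share with the first-named group higher was 1.09% in CL-CM-EE and 1.99% in CL-CM-EE-AI versus CL-NC, and 0.755% to 3.17% in the other 3 comparisons. The share with it lower was 1.6%, 1.95% and 3.32% for CL-CM-EE and the media of in vivo and in vitro embryos versus CL-NC, and 1.4% to 2.43% in the others.

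FDX1 and FDXR carry electrons to CYP11A1, FDXR taking them from NADPH and FDX1 handing them on. FDX1 measured 61.7, 90.7 and 70.0 CPM in R2, R4 and R5 of CL-NC and 77.0, 120 and 63.2 CPM in CL-CM-EE. It measured 62.7, 269 and 63.9 CPM in CL-CM-EE-AI and 97.8, 172 and 59.6 CPM in CL-CM-EE-IVF. FDX1 was thus highest in R4 in all 4 groups, like STAR. FDXR measured 20.3, 29.4 and 43.7 CPM in CL-NC and 24.3, 45.2 and 42.7 CPM in CL-CM-EE. It measured 24.8, 62.5 and 54.5 CPM in CL-CM-EE-AI and 34.7, 53.3 and 50.9 CPM in CL-CM-EE-IVF. For FDXR the R2 library was the lowest in each group, and R5 was above R4 in CL-NC and below it in the other groups.

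NR5A1, also called steroidogenic factor 1, is the nuclear receptor named for its control of steroid-making genes. It measured 20.9, 24.5 and 49.4 CPM in R2, R4 and R5 of CL-NC and 21.0, 26.5 and 39.3 CPM in CL-CM-EE. It measured 27.4, 52.5 and 62.8 CPM in CL-CM-EE-AI and 35.4, 41.3 and 51.6 CPM in CL-CM-EE-IVF. R5 was the highest library in all 4 groups and R2 the lowest. NR5A2, or liver receptor homologue 1, is its close relative and binds the same kind of site. NR5A2 measured 107, 249 and 136 CPM in CL-NC and 118, 228 and 103 CPM in CL-CM-EE. It measured 115, 194 and 124 CPM in CL-CM-EE-AI and 151, 151 and 113 CPM in CL-CM-EE-IVF. R4 was highest for this gene too, but its highest R4 library was the control and its lowest that of CL-CM-EE-IVF, unlike STAR, whose control was the lowest of the R4 libraries.

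TSPO is an outer mitochondrial membrane protein that binds cholesterol. It was the most sparsely counted gene of the 9, with 22 to 117 counts per library. It measured 1.10, 5.38 and 2.82 CPM in R2, R4 and R5 of CL-NC, so that its control group spanned its lowest and its highest library. The other 9 libraries lay between 2.53 and 5.28 CPM. POR is the reductase that feeds electrons to the cytochrome P450 enzymes of the endoplasmic reticulum, and CYP11A1 does not use it. POR measured 16.3, 11.6 and 24.1 CPM in CL-NC, and between 15.4 and 21.9 CPM in the other 9 libraries. Its highest library was 2.07 times its lowest, the narrowest span of the 9 genes, whereas the span was 7.17 times for STAR.

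**Figure D1:**
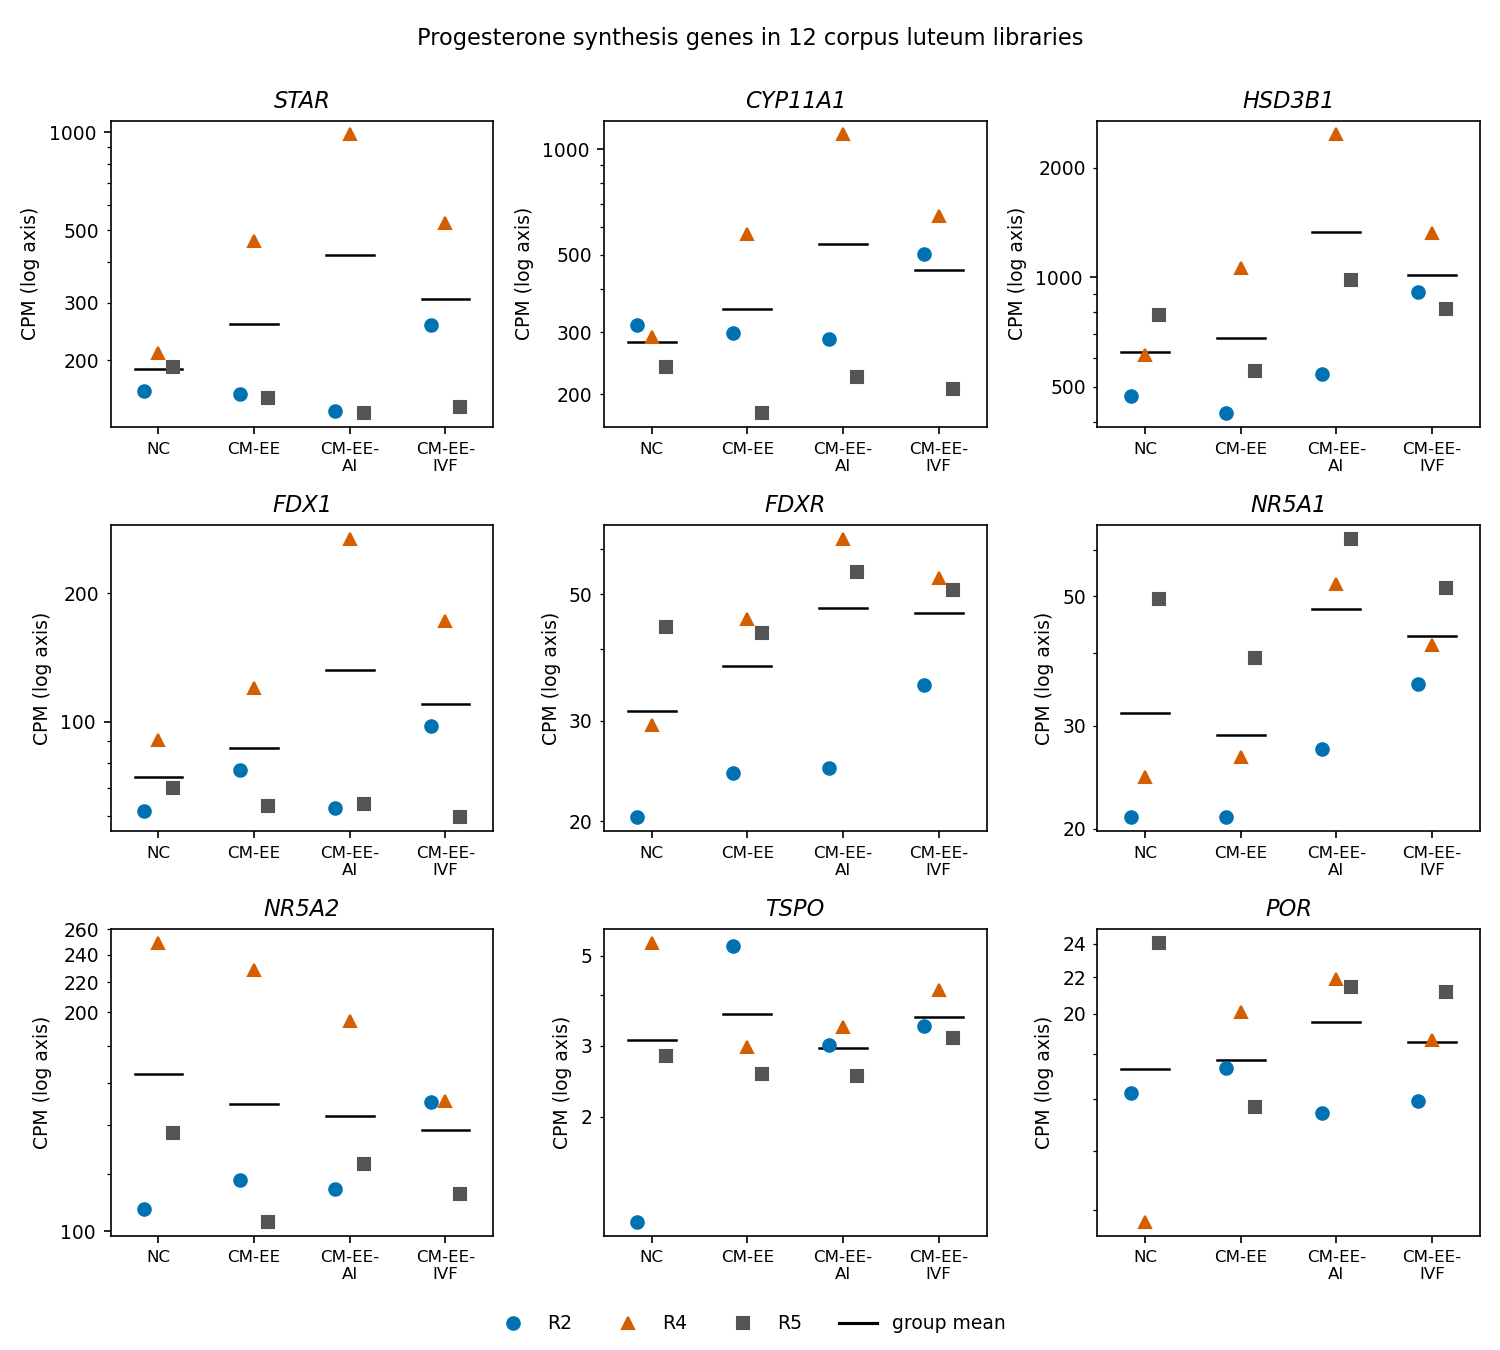
Normalised level (CPM, log axis) of each of the 9 genes in the 12 libraries, by group on the horizontal axis; symbols mark the R number and black lines the mean of 3 libraries. The R4 triangle of CM-EE-AI lies at the top for STAR (986 CPM), CYP11A1, HSD3B1, FDX1 and FDXR, while the R2 and R5 symbols of STAR stay between 138 and 256 CPM.

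The comparison of each conditioned-medium group with CL-NC asks whether these genes differed after exposure to that medium. None of the 9 genes passed the threshold of an adjusted p of 0.05 in any of the 6 pairwise comparisons or in the test across all 4 groups (edgeR's quasi-likelihood test with Benjamini-Hochberg adjustment). The same was true of all 18939 genes, so that 0% were called in each of these 7 tests. At an unadjusted p under 0.05, edgeR gave 0 of the 9 genes in each test. The share of all genes at that level was 0.75% for CL-CM-EE, 1.12% for the in vivo embryo medium and 1.48% for the in vitro embryo medium versus CL-NC. Versus CL-CM-EE it was 1.28% for the in vivo and 1.5% for the in vitro embryo medium, and it was 0.671% between the embryo media and 0.908% across the 4 groups. This fit had no term for the R number, among which 26.7% of all genes differed, so such differences counted as spread within groups. With the R number as a block, 0 genes passed. At an unadjusted p under 0.05 that edgeR fit gave 0 to 3 of the 9 genes per test, beside 0.861% to 5.15% of all genes. DESeq2 called 0 genes in each of the 6 pairs and 1 gene across the 4 groups, which was not one of the 9. At an unadjusted p under 0.05, DESeq2 gave 1 of the 9 genes, HSD3B1 in CL-CM-EE-AI versus CL-NC, where it gave 1.77% of all genes. The 3 comparisons with CL-NC share its libraries, so their values are given side by side.

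In CL-CM-EE-AI versus CL-NC the log2 fold change of STAR was 1.17 with a 95% interval from -0.45 to 2.79. That of HSD3B1 was 1.10 (-0.03 to 2.23), with an unadjusted p of 0.0563 and an adjusted p of 1.00 by edgeR, and that of CYP11A1 was 0.93 (-0.41 to 2.27). FDX1 stood at 0.83, FDXR at 0.60 and NR5A1 at 0.59. NR5A2, at -0.19, and TSPO, at -0.071, were below 0, and POR was at 0.18. Every interval included 0, and that of STAR held both no difference and one of more than 4-fold. The fold change was above 0 for 7 of the 9 genes, with a median of 0.60, against 53.1% of all genes and a median of 0.03.

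Without the R4 libraries, 4 of the 9 genes were above 0 in this comparison. STAR then stood at -0.33, CYP11A1 at -0.11 and FDX1 at -0.048, and HSD3B1 at 0.29, FDXR at 0.32 and NR5A1 at 0.37. The direction of STAR, CYP11A1 and FDX1 also turned when only the library CL-CM-EE-AI R4 was left out, to -0.43, -0.14 and -0.23. The summed CPM of the luteal cell markers was also highest in that library. This sum was 1864 CPM in CL-CM-EE-AI R4, against 573 CPM in CL-NC R4 and 523 to 1167 CPM in the other 10 libraries. Of these markers PTGFR was highest in CL-CM-EE-AI R4, at 682 CPM, whereas LHCGR was highest in CL-CM-EE-AI R5, at 298 CPM. The part of luteal cell content in the values of the 9 genes was not tested. In bulk tissue more cells of a type and more RNA per cell cannot be told apart.

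In CL-CM-EE-IVF versus CL-NC the fold changes were smaller for the genes of the chain itself. STAR had a log2 fold change of 0.72 (95% interval -0.88 to 2.33), HSD3B1 of 0.71 (-0.42 to 1.83) and CYP11A1 of 0.68 (-0.65 to 2.01). FDX1 and FDXR were both at 0.57 and NR5A1 at 0.44, while NR5A2 was at -0.25. The fold change was above 0 for 8 of the 9 genes, with a median of 0.57, against 45.9% of all genes and a median of -0.04. Without the R4 libraries the number was again 8, with NR5A2 turning to 0.11, POR to -0.12 and STAR at 0.18. The luteal cell markers summed to 727 to 1167 CPM in these 3 libraries and to 573 to 624 CPM in the 3 controls, without overlap, and their part in the values of HSD3B1 and the other genes was not tested.

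In CL-CM-EE versus CL-NC, which holds no embryo, STAR had a log2 fold change of 0.46 (95% interval -1.14 to 2.06) and CYP11A1 of 0.31. HSD3B1, at 0.13, and NR5A1 and NR5A2, both at -0.13, lay near 0. The fold change was above 0 for 7 of the 9 genes, with a median of 0.21, against 46.3% of all genes and a median of -0.03. Without CL-CM-EE R4 alone 2 of the 9 were above 0. Without the R4 libraries 3 were, and STAR, CYP11A1 and HSD3B1 turned to -0.18, -0.24 and -0.37.

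**Figure D2:**
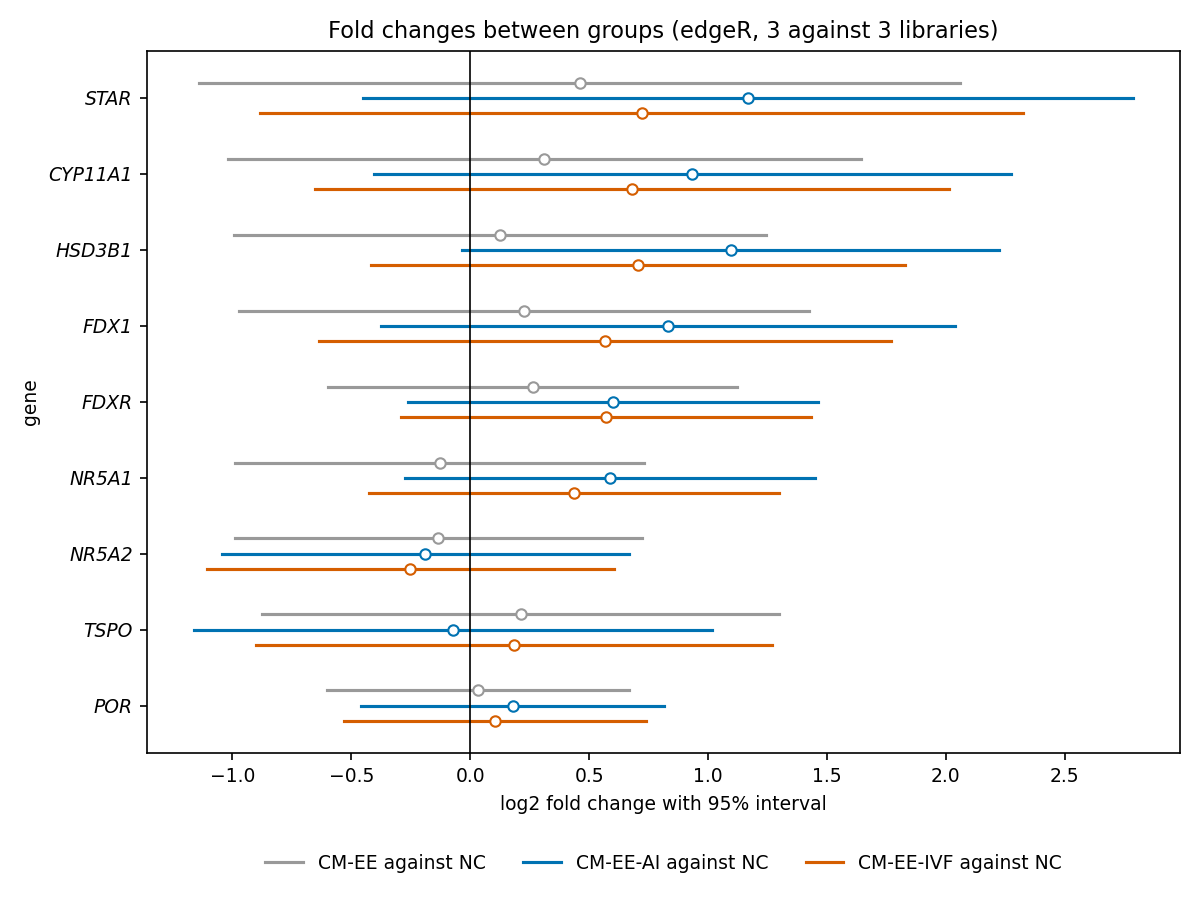
log2 fold change (point) with its 95% interval (line) of each gene in the 3 conditioned-medium groups against CL-NC, 3 libraries against 3, from edgeR. All 27 intervals include 0; the longest belong to STAR, from -0.45 to 2.79 in CM-EE-AI.

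The comparisons that bear on the embryo set the embryo media against the medium of explants alone. In CL-CM-EE-AI versus CL-CM-EE the log2 fold change of HSD3B1 was 0.97 (95% interval -0.16 to 2.10, unadjusted p = 0.0855 and adjusted p = 1.00 by edgeR). NR5A1 was at 0.72 (-0.15 to 1.58) and STAR at 0.71 (-0.90 to 2.31). In this comparison 7 of the 9 genes were above 0, against 56.1% of all genes. Without the R4 libraries 6 were above 0, with HSD3B1 at 0.65 and NR5A1 at 0.59, and STAR and FDX1 turned to -0.15 and -0.13. Without CL-CM-EE-AI R4 alone, 4 of the 9 were above 0. In CL-CM-EE-IVF versus CL-CM-EE the largest values were 0.58 (-0.54 to 1.70) for HSD3B1 and 0.56 (-0.30 to 1.43) for NR5A1, with 7 of the 9 above 0 against 47.6% of all genes. Without the R4 libraries 8 were above 0, with HSD3B1 at 0.82 and NR5A1 at 0.53. In CL-CM-EE-IVF versus CL-CM-EE-AI, which sets the in vitro against the in vivo embryo, 1 of the 9 genes, TSPO at 0.26, was above 0, against 37.8% of all genes. The other 8 lay between -0.45 for STAR and -0.03 for FDXR, and without the R4 libraries 7 of the 9 were above 0. The number was 8 without CL-CM-EE-AI R4, 3 without CL-CM-EE-AI R5 or CL-CM-EE-IVF R2 and 4 without CL-CM-EE-IVF R5. It was 4 with library totals alone, 3 without mitochondrial genes or with only those groups in the fit, and 2 with the R number as a block, so this count depended on the scaling and on single libraries.

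Because each R number occurs once per group, libraries were also compared with the library of the same number. In CL-CM-EE-AI, HSD3B1, FDXR and NR5A1 were above the CL-NC library in all 3 R numbers, as were 13.4% of all genes. For HSD3B1 the ratio was 1.15 in R2, 4.04 in R4 and 1.25 in R5. For NR5A1 it was 1.31, 2.14 and 1.27, and for FDXR 1.22, 2.12 and 1.25. The R4 pair gave the largest ratio for all 3 genes, and the other pairs were within 1.31 times.

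The same 3 genes were also higher in every R number in CL-CM-EE-IVF versus CL-NC, where 12.7% of all genes were. The ratios in R2, R4 and R5 were 1.93, 2.16 and 1.04 for HSD3B1, 1.71, 1.81 and 1.16 for FDXR, and 1.69, 1.68 and 1.04 for NR5A1. Here R5 gave the smallest ratio, within 1.04 times of its control for HSD3B1 and NR5A1. They were likewise higher in each R number in CL-CM-EE-AI versus CL-CM-EE, where 14.4% of all genes were. In CL-CM-EE-IVF versus CL-CM-EE CYP11A1 joined them, with 17.8% of all genes. In CL-CM-EE versus CL-NC none of the 9 was higher in each R number, where 5.82% of all genes were. In CL-CM-EE-IVF versus CL-CM-EE-AI the single gene was TSPO, and 5.91% of all genes shared the pattern. No gene of the 9 was lower in every R number in any comparison, against 10.1% of all genes in CL-CM-EE versus CL-NC and 7.55% to 13.4% in the others. These counts are descriptions from 3 pairs, several of which share libraries.

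STAR, CYP11A1 and FDX1 had a different pattern. In CL-CM-EE-AI versus CL-NC the ratio of STAR was 0.872 in R2, 4.68 in R4 and 0.722 in R5. That of CYP11A1 was 0.912, 3.79 and 0.939, and that of FDX1 was 1.02, 2.97 and 0.913. In all 3 genes only the R4 pair departed from 1 by more than 1.4 times. NR5A2 did not share in it, with a ratio of 0.780 in R4. In R5, STAR, CYP11A1, FDX1, NR5A2 and POR were below their control in all 3 conditioned-medium groups. These ratios share a single control library, CL-NC R5, and the share of all genes with this pattern was not counted.

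**Figure D3:**
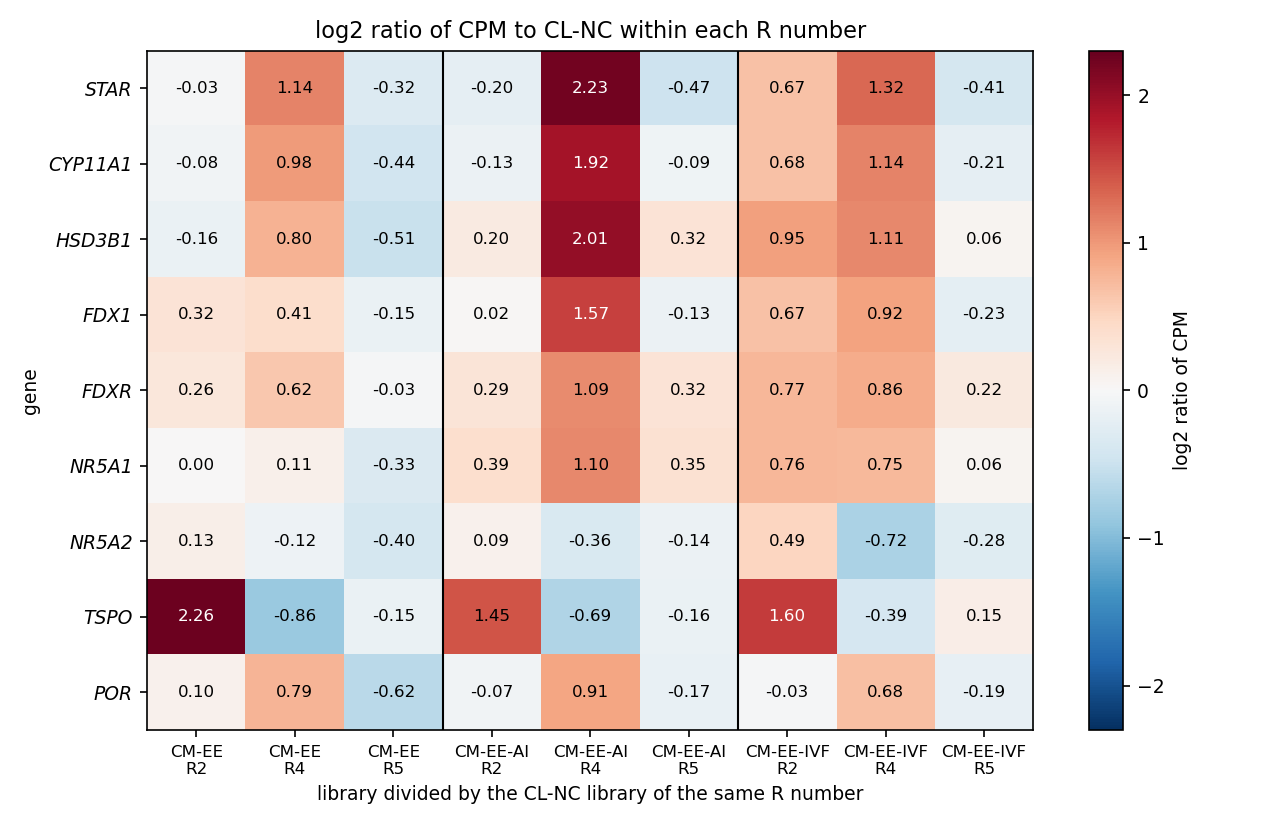
log2 ratio of the CPM of each conditioned-medium library to the CL-NC library of the same R number, for the 9 genes (rows), by group and R number (columns); red is higher and blue lower than the control. The R4 column of CM-EE-AI is the reddest for STAR (2.23), HSD3B1 (2.01) and CYP11A1 (1.92), and TSPO in R2 is high in all 3 groups beside a control of 22 counts.

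Several of the 9 genes differed among the R numbers, the labels whose meaning is not given. In a model with group and R number, 7 of the 9 genes differed among the R numbers, all but TSPO and POR, against 26.7% of all genes (edgeR's quasi-likelihood test with Benjamini-Hochberg adjustment over all genes). The adjusted p was 0.00378 for FDXR, 0.00405 for NR5A1, 0.00554 for STAR, 0.00622 for FDX1, 0.00757 for CYP11A1, 0.0114 for NR5A2 and 0.0256 for HSD3B1. It was 0.547 for TSPO and 0.447 for POR. The call of HSD3B1 was lost when any 1 of 7 libraries was left out, with adjusted p-values of 0.0521 to 0.103. That of NR5A2 was lost without CL-CM-EE R4, at 0.0722, and the other 5 calls held in all 12 fits that left out 1 library.

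The pairwise comparisons of R numbers were added after the values had been seen. In R4 against R2, 5 of the 9 genes were higher and none lower, against 8.72% of all genes higher and 4.93% lower. STAR was higher by a log2 fold change of 1.53 (95% interval 0.75 to 2.32, adjusted p = 0.0145 by edgeR), in 4 of 4 groups. HSD3B1 was higher by 1.13, FDX1 by 1.06, FDXR by 0.85 and NR5A2 by 0.73. Of these only NR5A2 had R4 libraries all above the R2 libraries, as had 10.9% of all genes. CYP11A1 was at 0.83 (0.17 to 1.48) with an adjusted p of 0.0913 by edgeR, but it passed with DESeq2 (adjusted p = 0.0465) and in edgeR with library totals alone (adjusted p = 0.0320). NR5A1 also passed with library totals alone (adjusted p = 0.0213), and NR5A2 was lost without mitochondrial genes (adjusted p = 0.0626), both by edgeR. Of the calls over all genes 63.9% were higher, against 78.2% with library totals alone and 49.3% with DESeq2. This count rested on few libraries. It fell to 0 without CL-CM-EE-AI R2, to 1 without CL-CM-EE R2 and to 2 without CL-NC R2 or without CL-CM-EE R4.

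In R5 against R2, NR5A1 was higher by 0.97 (95% interval 0.59 to 1.35, adjusted p = 0.00198 by edgeR) and FDXR by 0.90, with the R5 libraries above all R2 libraries for both. Such a lack of overlap was found for 17.4% of all genes. The count was 2 of 9 higher and 0 lower, against 11.5% of all genes higher and 9.26% lower. CYP11A1 had R5 libraries all below the R2 libraries, as had 13.5% of all genes, at a log2 fold change of -0.71 (-1.35 to -0.064) and an adjusted p of 0.117 by edgeR. It passed as lower with DESeq2 (adjusted p = 0.0197) and in edgeR without the R4 libraries (adjusted p = 0.0370). Of the calls over all genes in R5 against R2, 55.4% were higher, against 44.8% with DESeq2 and 45.3% without mitochondrial genes. In R5 against R4, STAR was lower, at -1.69 (-2.48 to -0.89, adjusted p = 0.00999 by edgeR), as were CYP11A1 at -1.54, FDX1 at -1.26 and NR5A2 at -0.79. None was higher. Of all genes, 8.67% were lower and 5.58% higher. These 4 genes had R5 libraries all below the R4 libraries, as had 11.5% of all genes. The count of 4 became 1 without CL-CM-EE-AI R5. HSD3B1, at -0.69 (-1.31 to -0.08), did not pass, with an adjusted p of 0.127 by edgeR, though it did with DESeq2 (adjusted p = 0.0385) and in edgeR with library totals alone (adjusted p = 0.0308). Nor did NR5A1 pass, at 0.54 (0.16 to 0.91) with an adjusted p of 0.0574 by edgeR. Of the calls over all genes in R5 against R4, 39.1% were higher, against 16.9% with library totals alone.

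**Figure D4:**
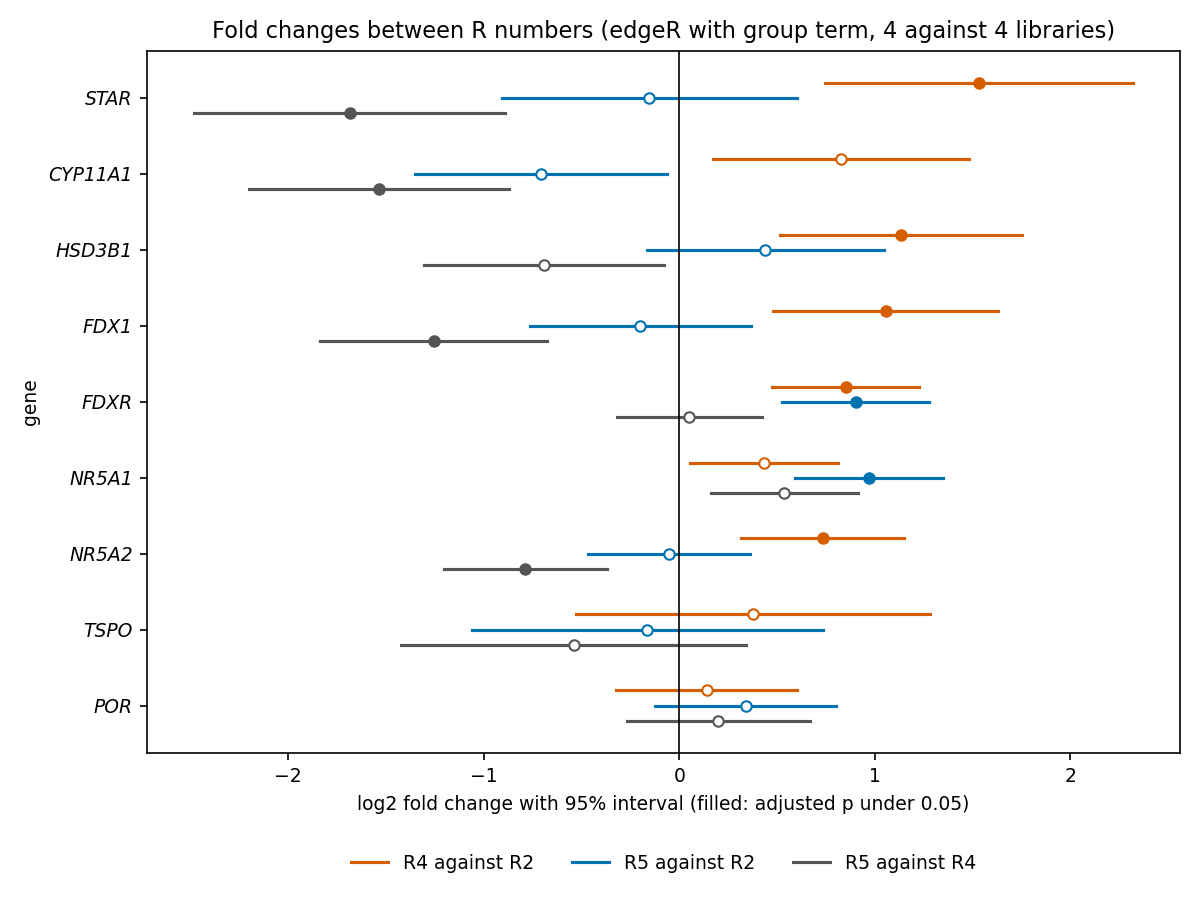
log2 fold change (point) with its 95% interval (line) of each gene between R numbers, 4 libraries against 4, from edgeR with a group term; filled points have an adjusted p under 0.05. STAR, CYP11A1, FDX1 and NR5A2 lie to the left in R5 against R4, with STAR at -1.69, while FDXR and NR5A1 lie to the right in R5 against R2.

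Levels of markers of other cell types are given by R number, as a description. The sum of the 4 granulosa markers of 5 found in the table (FSHR, CYP19A1, INHA and INHBA) was 59.2 to 165 CPM in R4, against 24.8 to 36.2 CPM in R2 and 25.2 to 45.5 CPM in R5. Over the 12 libraries INHBA reached 132 CPM, whereas FSHR reached 30.0, CYP19A1 8.22 and INHA 5.55 CPM. CYP19A1 was highest in an R5 library, that of CL-CM-EE. The theca marker INSL3, the 1 of 2 found in the table, measured 4.49 to 9.62 CPM in R4, 21.2 to 24.6 CPM in R2 and 24.6 to 89.8 CPM in R5. The sum of 8 endothelial markers was 1261 to 1578 CPM in R2, 751 to 1097 CPM in R4 and 796 to 1115 CPM in R5. That of 4 red blood cell markers was 17.3 to 30.9 CPM in R2 and 2.79 to 4.25 CPM elsewhere, with SLC4A1 at 0 in 1 library. Of these HBA reached 30.4 CPM, whereas HBB reached 1.93, ALAS2 2.15 and SLC4A1 0.942 CPM, so the high sums rested on HBA. The sum of 6 fibroblast markers was 618 to 998 CPM in R2, 243 to 973 CPM in R4 and 323 to 399 CPM in R5. That of 5 smooth muscle markers was 127 to 381 CPM in R4 and 63.4 to 107 CPM elsewhere, while 5 macrophage markers summed to 19.1 to 43.9 CPM and 5 T cell markers to 2.04 to 7.21 CPM over the 12 libraries. Mitochondrial transcripts took 44.4% to 48.9% of counts in R4, 49.5% to 55.9% in R2 and 54.8% to 64.0% in R5. The part of any of these in the differences of the 9 genes was not tested.

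Among themselves several of the 9 genes varied together over the 12 libraries, as a description of libraries that share R numbers and groups. STAR and FDX1 had a Pearson correlation of log2 CPM of 0.979, STAR and CYP11A1 of 0.938, and CYP11A1 and FDX1 of 0.937. FDXR correlated with NR5A1 at 0.867 and with HSD3B1 at 0.823, whereas NR5A1 correlated with CYP11A1 at 0.0037 and with NR5A2 at -0.098. HSD3B1 correlated with STAR at 0.844 and with NR5A1 at 0.638. The highest value of NR5A2 with another of the 9 was 0.661, with STAR. That of POR was 0.665, with NR5A1, and that of TSPO was 0.465, with NR5A2. STAR, CYP11A1, HSD3B1, FDX1 and FDXR shared their highest library, CL-CM-EE-AI R4. How often other pairs of genes correlated as closely was not counted.

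The genes outside the 9 with the most similar profiles were taken from 13071 genes with a symbol and a mean of at least 1 CPM. For STAR they were SOD2, the mitochondrial superoxide dismutase, at a correlation of 0.990, PTGFR, the receptor of prostaglandin F2α and one of the luteal markers, at 0.983 and HSPE1, a mitochondrial chaperonin, at 0.982. SOD2 reached 462 CPM in CL-CM-EE-AI R4 from a lowest value of 57.4 CPM in CL-NC R2. For CYP11A1 they were GOT2, a mitochondrial aminotransferase, at 0.985, VDAC1, the outer membrane channel of the cholesterol transfer list, at 0.983 and BUD23 at 0.976. For HSD3B1 they were RMDN2 at 0.972, UTP3 at 0.967 and TXN2, the mitochondrial thioredoxin, at 0.960. Each of these similar genes had its highest value in CL-CM-EE-AI R4, as had STAR, CYP11A1 and HSD3B1, so this shared peak follows from how they were chosen.

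The other genes of the pathway were described in lists by role. None of 12 cholesterol transfer genes, 10 electron transfer genes, 19 steroid enzymes, 27 genes of luteinizing hormone and cyclic AMP signalling and 30 transcription factors passed the threshold in any comparison of groups by edgeR. Among the R numbers, 4 of 12, 3 of 10, 7 of 19, 14 of 27 and 11 of 30 passed in that order, beside 26.7% of all genes. In CL-CM-EE-AI versus CL-NC the median log2 fold change was 0.27 for electron transfer genes, with 9 of 10 above 0, and -0.16 for signalling genes, with 9 of 27 above 0. The median of all genes in that comparison was 0.03. For cholesterol transfer it was 0.15, for steroid enzymes 0.19 and for transcription factors 0.06.

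Of the most abundant genes of these lists, HSD17B12, which acts in fatty acid elongation and on estrone, was highest in R4. It measured 358 to 825 CPM in R4, 78.4 to 124 CPM in R2 and 126 to 181 CPM in R5, and the R4 libraries did not overlap the others. Its log2 fold change was 2.51 in R4 against R2 (adjusted p = 5.88e-05 by edgeR) and 0.83 in CL-CM-EE-AI versus CL-NC (adjusted p = 1.00 by edgeR). PDE4D, a phosphodiesterase that breaks down cyclic AMP, was highest in R2. It measured 594 to 1352 CPM in R2, 213 to 365 CPM in R4 and 153 to 187 CPM in R5, with a log2 fold change of -1.52 in R4 against R2 (adjusted p = 0.000219 by edgeR).

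GNAS, the stimulatory G protein subunit that couples the luteinizing hormone receptor to adenylyl cyclase, stayed between 216 and 296 CPM in all 12 libraries. PRKAR1A, a regulatory subunit of protein kinase A, measured 42.3 to 57.4 CPM in R5, below all other libraries, which held 68.8 to 97.1 CPM. IDH1, a source of cytosolic NADPH, had its highest value, 118 CPM, in CL-CM-EE-AI R4, as did CYB5R3, a cytochrome b5 reductase, at 95.7 CPM. HSD17B4, a peroxisomal beta-oxidation enzyme, was also highest there, at 61.3 CPM. ACBD3 lay between 39.4 and 64.4 CPM over the libraries. Of the transcriptional regulators, FOXO1 measured 168 to 216 CPM in R4 and 90.4 to 125 CPM in R5, with a log2 fold change of -0.79 in R5 against R4 (adjusted p = 0.0138 by edgeR). The corepressor NCOR1 lay between 138 and 196 CPM.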

How the data were processed

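RNA was sequenced from bovine corpus luteum in 12 libraries, 3 in each of 4 groups. The authors deposited whole read counts per gene, without normalization, and no value was a fractional expected count. Per the submitters' processing notes, Trim Galore, cutadapt, the STAR aligner, featureCounts and DESeq2 were used, and versions, genome build and annotation are not stated there. The labels list 20 corpus luteum samples, a pair of titles per group for R4 and for R5 and 1 for R2. The table has 1 column per group and R number, used as 1 library, and no source used here says how the titles of a pair were combined. The lowest gene sum was 36 counts, and 0 of 12 within-group pairs of libraries were identical.

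Genes were filtered with filterByExpr by group and scaled by TMM. All 4 groups entered 1 edgeR 4.0.16 quasi-likelihood model, with Benjamini-Hochberg adjustment over 18939 genes and a threshold of 0.05. The R numbers were compared in a model with group and R number. The 95% intervals of log2 fold changes come from the standard error of the fit. Log2 CPM for correlations used a prior count of 2. Alternatives were DESeq2 1.42.0, library totals alone, mitochondrial genes left out, no filter, only 2 groups in the fit, the replicate block and each library left out in turn. Fits without the R4 or without the R2 libraries were chosen after seeing the data. R 4.3.3 and Python 3.11.15 were used. The fit was tested on simulated counts. Endometrial tables name genes by Ensembl ID and were not used here.

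The 9 genes, the lists and the tests were chosen with earlier results of these data known. All 9 are named. From each list the rule named up to 3 genes past the threshold between groups, or, where none passed, the 2 with the highest mean CPM. For likeness the 3 highest correlations were taken for each of STAR, CYP11A1 and HSD3B1.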

Additional observations from a re-analysis of the deposited data

Results flagged for a closer look

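Among the 4 R2 libraries, CYP11A1 was far from the others in CL-CM-EE-IVF R2, at 504 CPM against 287 to 315 CPM in the other R2 libraries. The gap was 0.872 of the whole range, above the 95% critical value for 4 samples. It was the 1 such case in 27 sets, each of 1 gene in the libraries of 1 R number, and chance gives about 1 in 20. The difference between groups was not tested within R2, where each group has 1 library.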

How the results depend on the processing

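The count of genes past the threshold between groups was 0 under every alternative in all 6 pairs. In the test across the 4 groups DESeq2 called 1 gene, MYO15B, with an adjusted p of 0.00175, a gene outside the naming rule and chosen with its value known. Over all genes tested in CL-CM-EE-AI versus CL-NC, the log2 differences had standard errors with a median of 0.501.

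With the replicate block, 0 genes passed in each group comparison, and 3 of the 9 genes had an unadjusted p under 0.05 in CL-CM-EE-AI versus CL-NC (HSD3B1 0.0234, FDXR 0.0145 and NR5A1 0.00979; adjusted p = 0.988 by edgeR for each), beside 3.59% of all genes. At that level the block gave 2 of the 9 in CL-CM-EE-IVF versus CL-NC (4.31% of all genes), 2 and 1 for the in vivo and in vitro embryo media versus CL-CM-EE (4.57% and 5.15%), 3 across the 4 groups (2.78%) and 0 in the other comparisons (0.861% and 1.57%). The block turned HSD3B1 in CL-CM-EE versus CL-NC to -0.016. What libraries of the same number have in common is not stated. The correlation of deviations was 0.081 to 0.662 in 18 same-numbered pairs, under 0.1 in 3 of them, and -0.490 to 0.198 in other pairs. Each of the 12 libraries correlated best with a library of its own number.

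Of 216 log2 fold changes of the 9 genes against CL-NC under alternatives other than leaving out 1 library, 15 changed sign. Library totals alone turned POR to -0.0090 in CL-CM-EE. Without the R4 libraries, the values that turned were, in CL-CM-EE, STAR -0.18, CYP11A1 -0.24, HSD3B1 -0.37 and POR -0.29. In CL-CM-EE-AI they were STAR -0.33, CYP11A1 -0.11, FDX1 -0.048, TSPO 0.51 and POR -0.12, and in CL-CM-EE-IVF NR5A2 0.11 and POR -0.12. Without the R2 libraries, TSPO turned to -0.54 in CL-CM-EE and -0.17 in CL-CM-EE-IVF. The cause was not tested. Library totals alone moved the median log2 difference of all genes by 0.18 in CL-CM-EE-IVF versus CL-CM-EE, 0.14 in R4 against R2 and -0.20 in R5 against R4, and DESeq2 moved it by -0.10 in R5 against R2. The number of the 9 genes past the threshold was 4 to 7 in R4 against R2, 2 to 3 in R5 against R2 and 4 to 5 in R5 against R4 under the alternatives that left out no single library, and 7 among the R numbers in each of them.

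Leaving out 1 library kept the counts between groups at 0. The number of the 9 genes that differed among the R numbers was 5 to 7 (all genes 3374 to 5141). It was 0 to 5 in R4 against R2 (1391 to 2526), 2 to 3 in R5 against R2 (2441 to 4347) and 1 to 5 in R5 against R4 (1214 to 2949). The lowest counts of all genes came without CL-CM-EE R4 in R4 against R2 and without CL-CM-EE-AI R5 in the others.
Of 27 fold changes against CL-NC, 17 changed sign in some such fit. In CL-CM-EE the ranges were STAR -0.27 to 0.70, CYP11A1 -0.25 to 0.60, HSD3B1 -0.35 to 0.34, FDX1 -0.079 to 0.40, NR5A1 -0.41 to 0.29, NR5A2 -0.57 to 0.30, TSPO -0.19 to 0.87 and POR -0.18 to 0.28. In CL-CM-EE-AI they were STAR -0.43 to 1.59, CYP11A1 -0.14 to 1.30, FDX1 -0.23 to 1.16, NR5A2 -0.46 to 0.24, TSPO -0.45 to 0.59 and POR -0.040 to 0.41. In CL-CM-EE-IVF they were NR5A2 -0.46 to 0.18, TSPO -0.21 to 0.85 and POR -0.12 to 0.33.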

Other observations

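The 2 nuclear receptors were set against each other as a ratio of CPM, chosen after the values were seen and not tested. NR5A2 over NR5A1 was 5.13 in CL-NC R2 and 5.61 in CL-CM-EE R2, against 4.19 in CL-CM-EE-AI R2 and 4.25 in CL-CM-EE-IVF R2. In R4 it was 10.2 and 8.63 in the groups without an embryo, against 3.70 and 3.66 in those with an in vivo and an in vitro embryo. In R5 it was 2.76 and 2.63, against 1.97 and 2.18. Within each R number the 2 embryo libraries were below the 2 without an embryo, although the R5 libraries of all groups were below the R2 libraries of all groups. How often other pairs of genes split the libraries in this way was not counted.

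The ratio of FDX1 to FDXR was 1.17 to 1.60 in the R5 libraries and 2.53 to 4.30 in those of R2 and R4. This ratio too was chosen after the values were seen and was not tested.

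CYP21, the steroid 21-hydroxylase of the adrenal cortex, measured 22.0 CPM (501 counts) in CL-CM-EE R5, and the next highest library, CL-CM-EE-AI R5, measured 3.15 CPM (66 counts). In CL-CM-EE R5 CYP19A1, the aromatase, had its highest value, 8.22 CPM, against 5.15 CPM in the next. Both genes were picked for mention here after the values were seen, and each high value is that of a single library.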
